A study of Mus musculus with 2 samples.

Results

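Retained-intron transcripts are annotated transcripts of a gene that hold intronic sequence and carry no annotated open reading frame. In the mouse annotation GENCODE M21, 21848 of the 141767 transcripts quantified here belong to this class, in 9421 genes. The transcripts described below were selected on their own level: TPM (a level scaled for transcript length and library depth) of at least 1 in both libraries of the alignment-free tables. This selected 9015 transcripts of 4890 genes, called members below, and left 12833 below the minimum. A second selection took genes in which 1 member held at least 50% of the gene's summed TPM in both libraries and the gene reached 10 TPM in both. It selected 57 genes, and their 57 transcripts are called leading members. Since both selections used the measured TPM, the levels and shares are given as a description without a test.

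Total RNA, 300 ng for each library, came from tissue labelled as layer of hippocampus. The mice were adult males, 8 to 10 months old, of the strain 5xFAD/CAST. The 5xFAD mouse carries human transgenes with familial Alzheimer disease mutations under a Thy1 promoter, which is active mainly in neurons, and CAST is a wild-derived strain whose genome differs from the reference at many sites. Libraries were directional and depleted of ribosomal RNA, with ERCC spike-in RNAs added. There was 1 group of 2 libraries, biological replicates 1 and 2, to which the labels give 1 shared donor identifier, so an SD covers just these 2 libraries and may reflect technical spread alone. Mice without the transgenes were not analysed here, so the values describe 1 condition. The alignment-free tables held 29554433 and 32341517 estimated counts, of which members took 3.72% and 3.65%. Markers of hippocampal neurons (10 genes), astrocytes, oligodendrocytes and microglia (4 genes each) all reached 1 TPM in both libraries. Summed TPM of 6 choroid plexus markers was 1188 in replicate 1 and 182 in replicate 2, and that of 6 striatal markers was 145 and 61.6, in the alignment-based gene table. At least 1 TPM in both libraries was reached by 3 of the choroid plexus and 5 of the striatal markers. None of the choroid plexus markers has a member, and the striatal markers have 4.

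Introns are removed from most transcripts while RNA polymerase is still working or shortly after. A transcript that keeps one is usually held in the nucleus or, if exported, can be degraded when the intron brings an early stop codon into frame. In neurons, some transcripts with introns wait in the nucleus and are spliced on activity, and genes of splicing factors use kept introns to limit their own output. Total RNA also contains unfinished nuclear transcripts, and the class name is an annotation that says nothing about how a molecule was made. An intron starts at a donor site, nearly always GT, and ends at an acceptor site, nearly always AG after a run of pyrimidines.

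The sequences show what separates a leading member from the coding transcripts of its gene. They are from the GENCODE M21 transcript sequences (mm10 coordinates), which follow the reference strain and not CAST. How CAST alleles bear on the assignment of reads, and so on the TPM and shares below, was not tested. In 36 of the 54 leading members with bases outside the exons of every spliced coding transcript of the gene, the longest such stretch was the 5′ end of the transcript. Such a transcript starts outside these exons, mostly inside an intron, and runs on into a shared exon. All 36 stretches end with AG. They end where an annotated coding-transcript exon begins, so these letters largely follow from the definition. Capitals mark the stretch outside coding-transcript exons and lower case the next 10 bases of the shared exon. The examples were chosen after the values were seen, for their high level and, in Grcc10-203, for the short stretch of 20 bases.
Rps16-203, chr7:28350924-28351001, plus strand: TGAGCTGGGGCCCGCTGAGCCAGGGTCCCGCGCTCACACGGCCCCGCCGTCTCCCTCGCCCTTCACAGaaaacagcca
Ctsb-202, chr14:63135518-63135617, plus strand: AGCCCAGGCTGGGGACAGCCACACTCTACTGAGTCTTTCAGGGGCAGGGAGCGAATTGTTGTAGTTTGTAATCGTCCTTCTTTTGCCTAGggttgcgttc
Atp5j-208, chr16:84831498-84831607, minus strand: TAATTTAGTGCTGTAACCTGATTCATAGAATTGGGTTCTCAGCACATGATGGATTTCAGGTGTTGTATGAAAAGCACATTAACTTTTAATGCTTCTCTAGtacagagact
Rps26-202, chr10:128626231-128626424, minus strand: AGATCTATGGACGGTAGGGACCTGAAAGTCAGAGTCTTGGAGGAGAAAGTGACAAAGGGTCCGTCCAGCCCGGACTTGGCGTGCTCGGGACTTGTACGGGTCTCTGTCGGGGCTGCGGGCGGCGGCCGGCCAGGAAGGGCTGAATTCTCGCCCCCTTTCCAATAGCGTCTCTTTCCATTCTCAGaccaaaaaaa
Cox7b-203, chrX:106019391-106019588, plus strand: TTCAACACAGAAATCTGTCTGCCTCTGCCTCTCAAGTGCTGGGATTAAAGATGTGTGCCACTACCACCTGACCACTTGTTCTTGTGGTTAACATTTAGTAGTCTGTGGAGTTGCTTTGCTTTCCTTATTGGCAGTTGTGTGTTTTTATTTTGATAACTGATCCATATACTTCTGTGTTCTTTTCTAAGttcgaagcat
Grcc10-203, chr6:124740686-124740715, minus strand: GGGATGCTTCCGTCTCGCAGtggtcctggc

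In 15 of the 57 leading members a whole intron of the leading coding transcript (the spliced coding transcript with the highest mean TPM) was kept. The 4 examples keep 1 short intron each, which starts with GT and ends with AG. Capitals mark the kept intron and lower case 10 exon bases on each side.
Rps13-208, chr7:116333939-116334094, minus strand: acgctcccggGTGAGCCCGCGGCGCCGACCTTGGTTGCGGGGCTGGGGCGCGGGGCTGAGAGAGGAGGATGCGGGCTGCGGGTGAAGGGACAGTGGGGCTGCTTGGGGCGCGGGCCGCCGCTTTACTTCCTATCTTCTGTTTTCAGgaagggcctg
Prelid1-202, chr13:55324435-55324536, plus strand: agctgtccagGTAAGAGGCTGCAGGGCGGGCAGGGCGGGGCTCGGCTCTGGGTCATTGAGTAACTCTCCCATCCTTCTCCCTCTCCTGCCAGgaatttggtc
Mrps26-201, chr2:130564218-130564317, plus strand: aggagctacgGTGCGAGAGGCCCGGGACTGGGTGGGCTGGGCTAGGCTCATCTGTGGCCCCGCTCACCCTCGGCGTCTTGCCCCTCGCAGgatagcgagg
Rex1bd-205, chr8:70506570-70506671, minus strand: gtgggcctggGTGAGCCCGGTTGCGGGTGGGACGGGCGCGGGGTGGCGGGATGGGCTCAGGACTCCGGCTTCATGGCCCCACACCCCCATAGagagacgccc

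The last pair comes from genes in which the other quantification placed the reads elsewhere. Both transcripts start outside coding-transcript exons, marked in capitals, and share the rest of their length with coding transcripts.
Cycs-201, chr6:50565659-50565949, minus strand: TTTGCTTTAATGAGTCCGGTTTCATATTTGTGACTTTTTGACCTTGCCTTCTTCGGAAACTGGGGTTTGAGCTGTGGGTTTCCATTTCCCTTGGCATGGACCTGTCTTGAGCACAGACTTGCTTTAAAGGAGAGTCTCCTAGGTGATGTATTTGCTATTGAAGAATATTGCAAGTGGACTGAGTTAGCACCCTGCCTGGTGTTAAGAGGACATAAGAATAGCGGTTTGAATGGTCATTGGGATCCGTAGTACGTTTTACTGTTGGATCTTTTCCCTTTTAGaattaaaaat
Gstp2-204, chr19:4040806-4040883, minus strand: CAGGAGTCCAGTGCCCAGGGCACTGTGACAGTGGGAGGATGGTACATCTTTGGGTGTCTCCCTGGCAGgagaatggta

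Retained-intron transcripts held 4.54% of the TPM of all annotated transcripts in replicate 1 and 4.83% in replicate 2, or 4.68% ± 0.203 (SD, n = 2). In the alignment-based tables the values were 4.42% and 4.46%. Protein-coding transcripts held 38.3% and 41.5%, processed transcripts 3.63% and 3.83%, and transcripts marked for nonsense-mediated decay 1.47% and 1.62%. Of all annotated retained-intron transcripts, 41.3% reached the minimum, against 39.8% of protein-coding, 28.7% of nonsense-mediated decay and 27.8% of processed transcripts.

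Most members were low. Their median was 2.37 TPM in replicate 1 and 2.50 TPM in replicate 2. In both libraries, 1400 members (15.5%) reached 5 TPM, 468 reached 10 TPM and 48 reached 50 TPM. A member held a median of 8.06% and 7.88% of its gene's TPM, while protein-coding transcripts at the same minimum held 31.3% and 31.5%. A share of at least 10% in both libraries was held by 3125 members (34.7%), of at least 25% by 616 and of at least 50% by 127. The median estimated count behind a member was 60.2 and 63.2. At least 20 counts in both libraries stood behind 7038 members (78.1%), while 566 had fewer than 10 in a library, so the values of single low members are imprecise. Of the 4890 genes, 2709 had 1 member and 2181 had more, up to 10 in Tia1, which codes for an RNA-binding protein of stress granules (named for this count).

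Among the highest members were Rps16-203 at 247 and 268 TPM in replicates 1 and 2, Itm2b-202 at 212 and 223, Ctsb-202 at 181 and 204 and Sncb-204 at 157 and 210. Itm2b codes for a membrane protein related to familial dementia and Sncb for beta-synuclein, a presynaptic protein. Itm2b-202 held 34.6% and 34.3% of its gene, and Sncb-204 47.3% and 49.7%. Further high members were Rps26-202 (160 and 182 TPM), Rpl31-204 (174 and 166), Cox7b-203 (154 and 186) and Rpl37a-204 (155 and 152). In the alignment-based table Rpl37a-204 had only 4.99 and 6.21 TPM, and Sncb-204 56.3 and 77.8 TPM with IsoPct (the percent of the gene's level in that table) of 21.2% and 24.4%. Of these 8 members, 4 belong to genes of cytosolic ribosomal proteins, which have near-identical processed pseudogenes, so their values are uncertain wherever reads fit both. In 7 of the 8 the longest stretch outside coding-transcript exons was at the 5′ end; Rpl37a-204 was the exception and keeps a whole intron. Across members, TPM in the 2 libraries had a Spearman correlation of 0.81, and shares one of 0.92. These are descriptions over 9015 transcripts, which share their libraries and, in part, their genes.

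**Figure D1:**
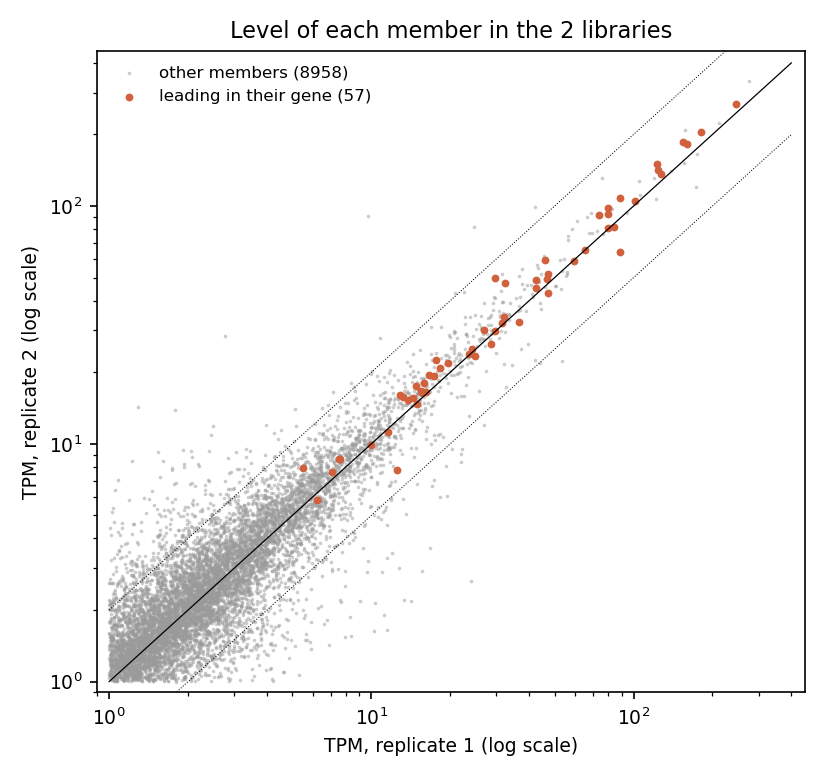
TPM of each of the 9015 members in replicate 1 (x axis) and replicate 2 (y axis), both on log scales. Orange points are the 57 leading members, the solid line marks equal TPM and the dotted lines a 2-fold difference. No orange point lies outside the dotted lines, which their selection in both libraries in part gives.

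Members differed in how much of the transcript was intronic. Of the 9015, 2560 (28.4%) kept a whole intron of the leading coding transcript and 318 one of another coding transcript only. The largest group, 6021 members (66.8%), held part of an intron or sequence outside the coding transcripts' exons, without a whole intron. A further 24 lay within coding-transcript exons and 92 were in genes without a spliced coding transcript. Over the 8923 members of genes that have one, a median of 407 bases, or 45.0% of the length, lay outside coding-transcript exons. Over 55 of the leading members the medians were 98 bases and 18.9%. Members had a median length of 928 bases, leading members 601 and retained-intron transcripts below the minimum 849. Of the leading members, 44 were shorter than 1000 bases.

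Members with high and low shares differed in where the intronic sequence sat. Among 5846 members with a share under 10% in the lower library, the longest stretch was at the 5′ end in 25.2% and at the 3′ end in 47.8%. Among 471 members with 25 to 50%, the values were 38.4% and 31.4%. Among 100 with at least 50%, they were 45% and 21%, and among 54 leading members 66.7% and 5.56%. A transcript that starts in an intron and continues through shared exons thus made up a larger part of the members with high shares. The order did not extend below the minimum, where the median share was 2.67% and 2.57%. Among 12409 transcripts there, the stretch was at the 5′ end in 33.6%, above the members under 10%, and at the 3′ end in 41.6%. The median percent of the transcript outside coding-transcript exons was 50.2% under a share of 10%, 37.1% at 10 to 25%, 26.6% at 25 to 50% and 22.5% at 50% or more. Below the minimum it was 39.7%. The share is itself a measured value that defined these groups, so this is a description.

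**Figure D2:**
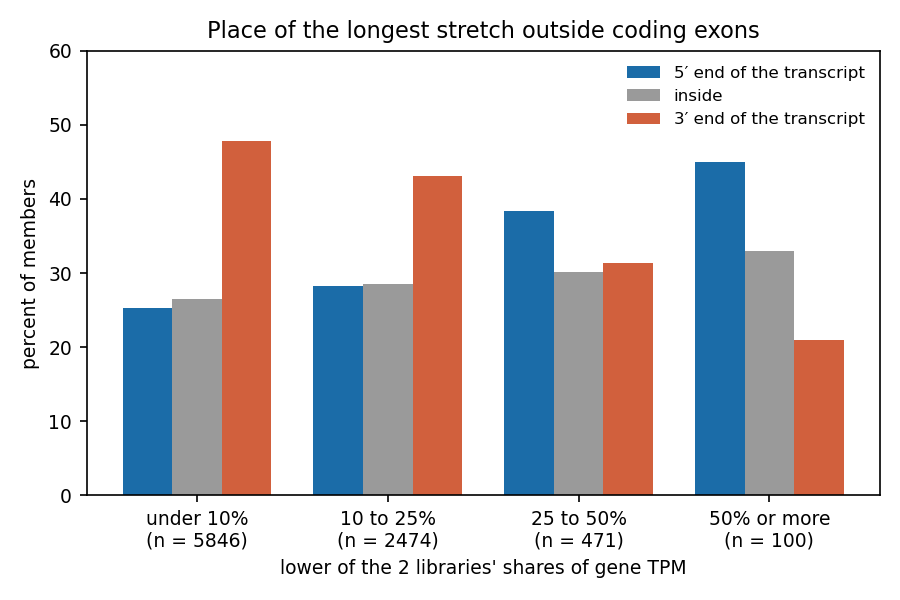
Percent of members (y axis) whose longest stretch outside coding-transcript exons lay at the 5′ end (blue), inside (grey) or at the 3′ end (orange) of the transcript, by the lower of the 2 libraries' shares of gene TPM (x axis). The 5′ end holds it in 25.2% of members with a share under 10% and in 45% of those with at least 50%, and the 3′ end in 47.8% and 21%.

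The edges of these stretches carried splice site letters. Of 2400 members with the stretch at the 5′ end, 2355 (98.1%) had AG as its last 2 bases, the acceptor letters. Of 4027 with the stretch at the 3′ end, 3893 (96.7%) had GT as its first 2 bases, the donor letters. Where a stretch adjoins an annotated coding-transcript exon, such letters largely follow from the definition. Members of the first kind read from within an intron into an exon, and those of the second kind read from an exon into an intron and stop there. In replicates 1 and 2, median TPM was 2.84 and 3.001 for the 5′ kind and 2.20 and 2.27 for the 3′ kind. In 110 members the stretch overlapped an exon of another gene on the same strand, where reads cannot be assigned to either gene with certainty.

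The introns kept whole by members were short. The 3451 distinct introns (of at least 30 bases) had a median length of 266 bases, with quartiles at 119.5 and 691. The other 58020 introns of the leading coding transcripts of the same genes had a median of 1250 bases. Introns under 100 bases made up 18.6% of the kept ones and 6.26% of the others, and introns over 1000 bases 17.0% and 56.1%. Introns kept only by transcripts below the minimum were similar to the kept ones, at a median of 251 bases over 3358. The difference from other introns is one between annotated sets and was not tested. It also holds for annotated transcripts that were low in these libraries. Median GC content was 51.7% in the kept introns and 50.9% in those kept only below the minimum.

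**Figure D3:**
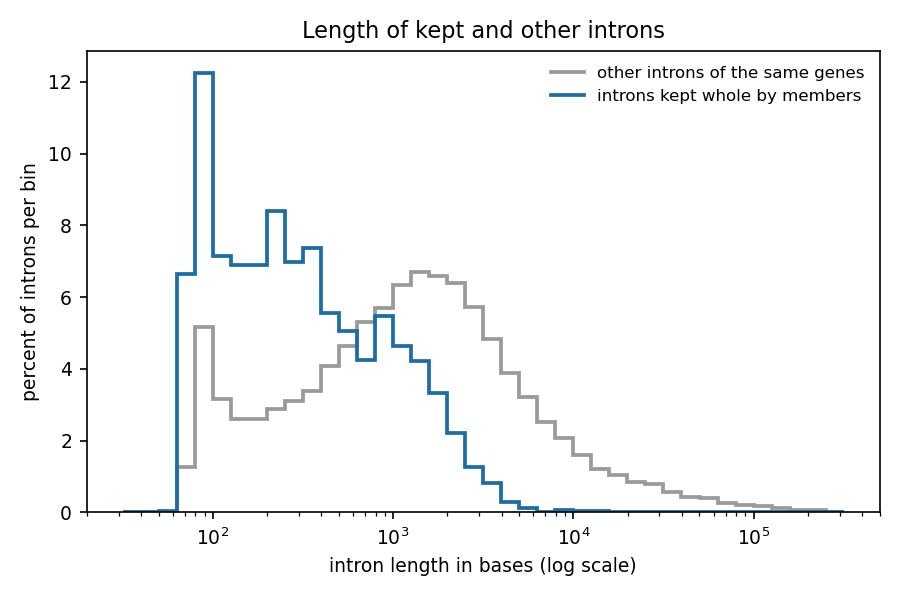
Length of the 3451 introns kept whole by members (blue) and of the 58020 other introns of the same genes (grey), as percent of introns per bin (y axis) over length in bases on a log scale (x axis). Medians are 266 and 1250 bases.

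GT and AG bounded 3401 of the 3451 kept introns (98.6%), GC and AG 38, and AT and AC 4. AT-AC introns belong to a rare class removed by the minor spliceosome. The genes with these 4 introns, named after the search, are Tcea2, a transcription elongation factor, Rnf123, a ubiquitin ligase, Sms, which makes spermine, and E2f6, a transcriptional repressor. The highest of their members was Tcea2-206 at 3.90 and 4.68 TPM, with 19.8% and 16.4% of its gene. The donor letters GTAAGT, which pair best with U1 RNA, began 335 kept introns (9.71%) and 9.68% of those kept only below the minimum.

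Most kept introns interrupt the reading frame. Of 3330 kept introns between coding exons, 3002 (90.2%) held a stop codon in the frame of the leading coding transcript. Among those under 100 bases the value was 70.1%, and among those of at least 200 bases 98.8%. Introns kept only below the minimum were close to this, at 87.8% of 3211, with 66.2% and 98.4% for these lengths. Of the members' 328 kept introns without a stop, 69 had a length that is a multiple of 3, so that the frame continues through that intron. Among the members with such introns was Cpne6-206, of a calcium-dependent membrane-binding protein of neurons, at 19.96 and 28.2 TPM with a kept intron of 171 bases. Slc17a7-203, of the vesicular glutamate transporter VGLUT1, had 11.4 and 14.3 TPM and also an intron of 171 bases. Akap8l-207 had 16.3 and 16.3 TPM, with 23.1% and 21.8% of its gene. Cpne6-206 keeps 4 introns in all, Slc17a7-203 5 and Akap8l-207 3, so the statement on the frame covers 1 intron and not the whole transcript. These 3 were picked from the highest members of this kind after their values were seen.

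Small RNA genes lay inside the kept introns of 53 members in 42 genes, 2.07% of the members that keep a whole intron. Such introns were 1.62% of those kept by members and 0.208% of those kept only below the minimum. Many small nucleolar RNAs, which guide chemical changes of ribosomal RNA, are cut out of introns. The examples below were chosen after the values were seen. Rps3-204, with Snord15b in its kept intron, stood at 9.98 and 10.2 TPM. Snord15b itself was listed at 0 in the alignment-free table and at 495 and 459 TPM in the alignment-based table. Eif4a1-202, of a translation initiation helicase, had 21.4 and 23.7 TPM and holds Gm22988, at 0 in the alignment-free and 724 and 806 TPM in the alignment-based table. The host levels are from the alignment-free table, where both small RNAs were at 0. In the alignment-based table both small RNAs were far above those alignment-free host levels. How the reads were assigned was not tested.

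The 57 leading members were 0.632% of 9013 members in genes with several transcripts. Over all 38416 transcripts at 1 TPM in such genes, 10.2% passed the same share and gene TPM limits. They include 3692 protein-coding, 86 processed and 44 nonsense-mediated decay transcripts. Since the selection used these values, the comparison is a description. Shares of the leading members ranged from 50.2% to 100%, with medians of 64.2% and 63.3%, and 11 had at least 75% in both libraries. The shares of the 2 libraries lay less than 5 points apart in 41 of 57. The widest gap was in Lyrm7-202, of an assembly factor of respiratory complex III, with 68.9% in replicate 1 and 50.7% in replicate 2, from 34 and 23 counts. At least 100 counts in both libraries stood behind 47 of the 57.

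**Figure D4:**
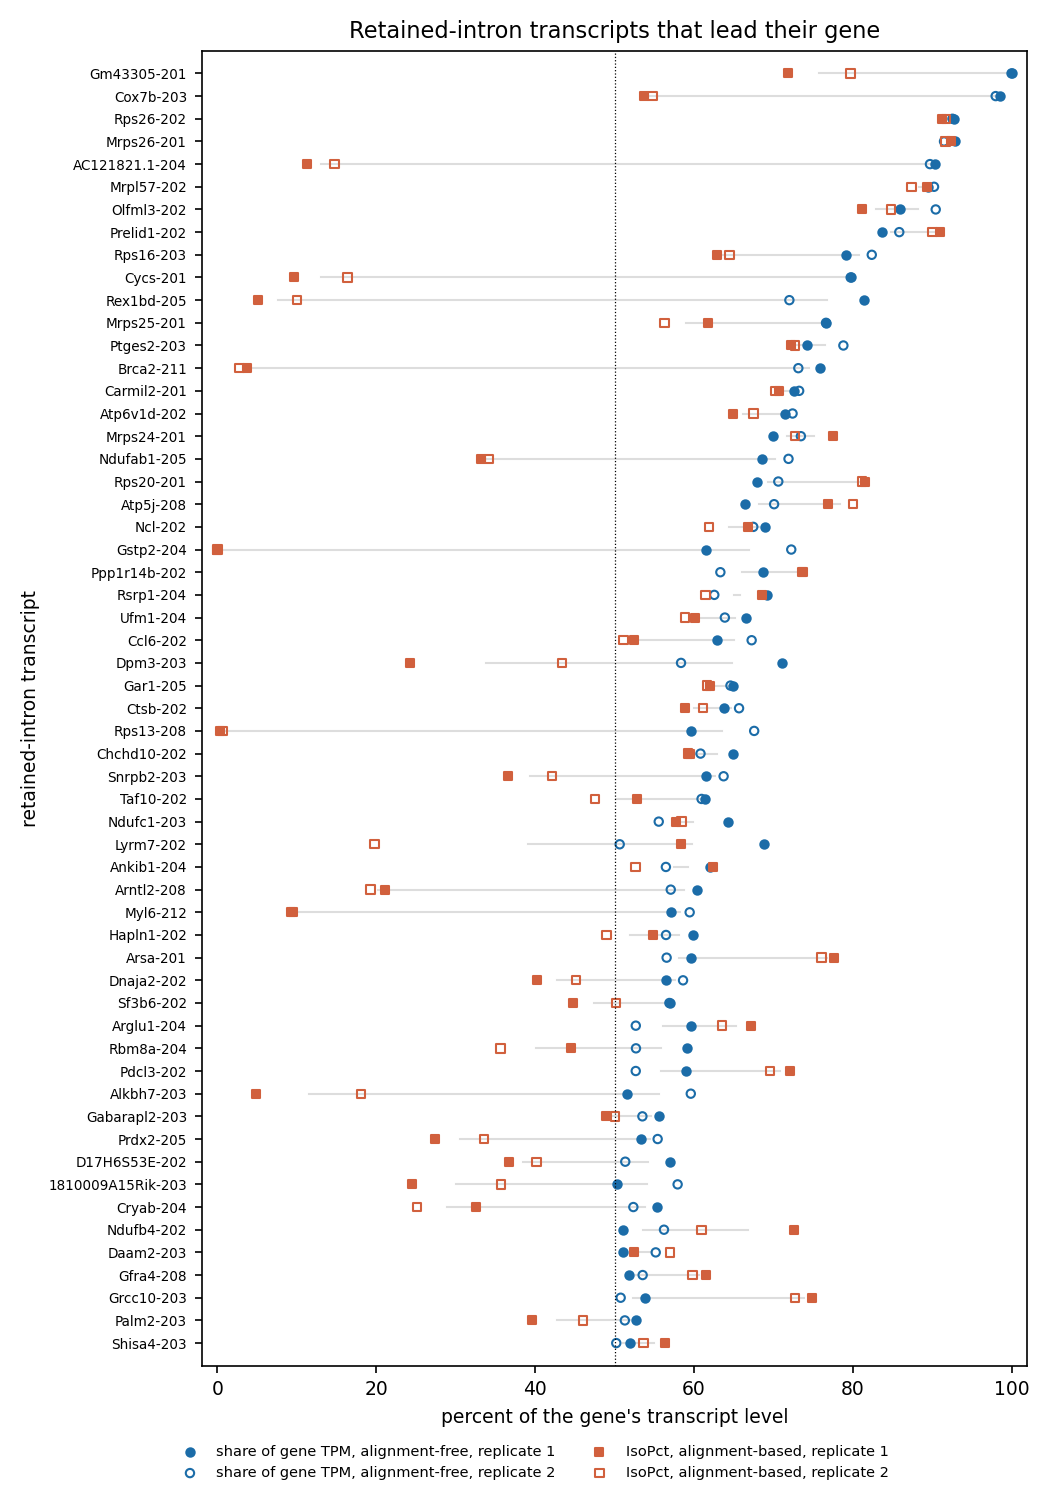
The 57 leading members (y axis) with their percent of the gene's level (x axis): blue circles are shares of gene TPM in the alignment-free tables and orange squares IsoPct of the alignment-based tables, filled for replicate 1 and open for replicate 2. The dotted line marks 50%, which every circle passes by the selection, and grey lines join the means, with the longest gaps in AC121821.1-204, Brca2-211, Rex1bd-205, Gstp2-204 and Cycs-201.

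From the small ribosomal subunit, 4 genes were among the 57. Rps26-202 stood at 160 and 182 TPM and held 92.7% and 92.6% of the gene's TPM (92.6% ± 0.097, SD, n = 2). Its coding transcript Rps26-201 had 10.6 and 13.0 TPM. The IsoPct was 91.3% and 91.8%, so both tables place this transcript far above the others. Rps16-203 held 79.1% and 82.4%, with IsoPct of 62.9% and 64.5%. Rps20-201, which keeps intron 1 of 192 bases with 71.9% GC, held 68.0% and 70.6%, with IsoPct of 81.5% and 81.2%. Rps13-208, which keeps intron 1 of 136 bases, stood at 79.7 and 93.0 TPM and held 59.6% and 67.6%. Its IsoPct was 0.350% and 0.620%, and the coding transcript Rps13-201 had 79.9% and 81.1% there. For Rps13, 7 annotated pseudogenes carry the gene's name, for Rps16 2 and for Rps26 1, so reads can fit several copies.

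Several leading members belong to genes of mitochondrial proteins. Cox7b-203, of cytochrome c oxidase, stood at 154 and 186 TPM and held 98.6% and 98.0% of its gene. Its IsoPct was 53.7% and 54.8%, where the coding Cox7b-201 had 46.3% and 43.4%. Atp5j-208, of ATP synthase, stood at 123 and 150 TPM, with shares of 66.4% and 70.1% and IsoPct of 76.9% and 80.0%. From complex I, 3 subunits were among the 57. Ndufc1-203 had 88.8 and 63.8 TPM (64.2% and 55.6%), Ndufab1-205 59.1 and 59.0 TPM (68.6% and 71.9%), and Ndufb4-202 32.3 and 47.3 TPM (51.0% and 56.2%). IsoPct was 57.7% and 58.4% for Ndufc1-203, 72.6% and 61.0% for Ndufb4-202, and only 33.1% and 34.2% for Ndufab1-205. Chchd10-202, of a protein of the space between the mitochondrial membranes, had 100.9 and 105 TPM, with 64.9% and 60.8%. Cycs-201, of the electron carrier cytochrome c, held 79.8% and 79.7%, with IsoPct of only 9.59% and 16.4%. Prelid1-202, of a lipid carrier between mitochondrial membranes, keeps the 82-base intron 3 printed above. It held 83.7% and 85.9%, and its IsoPct was higher, at 91.0% and 90.0%. Mrps26-201 and Mrpl57-202, of the mitochondrial ribosome, held 92.8% and 91.5% and 89.5% and 90.2%. Their IsoPct was 92.4% and 91.7%, and 89.3% and 87.4%.

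Genes of RNA binding and processing were also among the 57, and 3 of them keep whole introns. Rsrp1-204, of an arginine- and serine-rich protein, keeps intron 3 of 1302 bases and stood at 79.9 and 80.9 TPM. It held 69.2% and 62.6%, with IsoPct of 68.6% and 61.4%, and rested on 5456 and 5574 counts. Ncl-202, of the nucleolar protein nucleolin, keeps introns 9 and 10 of 13 (492 and 190 bases). It stood at 42.5 and 45.2 TPM, with 68.9% and 67.5%, and IsoPct of 66.8% and 61.9%. Arglu1-204, of a splicing modulator known for a conserved kept intron, keeps intron 2 of 2280 bases. It stood at 29.6 and 29.95 TPM, with 59.6% and 52.7%, and IsoPct of 67.2% and 63.5%. Taf10-202, of the general transcription factor TFIID, is of the short kind: 98 bases at its 5′ end lie in intron 1. It held 61.4% and 61.0%, with IsoPct of 52.8% and 47.5%. In Rsrp1, Ncl and Arglu1 both tables gave the member more than 50% in both libraries, and more than 50% of the gene's estimated counts too: 80.6% and 77.6%, 50.9% and 51.0%, and 73.2% and 71.7%.

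Lysosomal, autophagy and stress genes followed. Ctsb-202, of the lysosomal protease cathepsin B, stood at 181 and 204 TPM and held 63.7% and 65.7%, with IsoPct of 58.9% and 61.2%. At 801 bases it took only 18.4% and 19.6% of the gene's estimated counts. Atp6v1d-202, of the proton pump that acidifies lysosomes, stood at 74.0 and 91.5 TPM (71.5% and 72.4%). Gabarapl2-203, of an ATG8-family protein of autophagosomes, had 46.9 and 49.1 TPM (55.6% and 53.5%), with IsoPct of 48.9% and 50.1%. Prdx2-205, of a peroxide-reducing enzyme, had 88.7 and 108 TPM (53.4% and 55.4%), with IsoPct of 27.4% and 33.5%. Dnaja2-202, of an Hsp70 cochaperone, had 45.9 and 59.1 TPM (56.5% and 58.6%), and Cryab-204, of the small heat shock protein alpha B-crystallin, 47.3 and 43.1 TPM (55.3% and 52.4%). Their IsoPct was 40.3% and 45.2%, and 32.6% and 25.1%.

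The remaining genes named by level had mixed roles. Myl6-212, of a myosin light chain, stood at 124 and 141 TPM with 57.1% and 59.5%, while its IsoPct was 9.29% and 9.51%. Grcc10-203 held 53.8% and 50.8%, Shisa4-203 51.9% and 50.2%, and Ankib1-204 62.0% and 56.5%. Gm43305-201 is a transcript of 4901 bases in 1 exon and took 100% of its gene in both libraries, with 80.1 and 97.8 TPM. Its IsoPct was 71.8% and 79.7%, and its TPM in the alignment-based table was 14.2 and 16.9. AC121821.1-204 stood at 84.5 and 81.6 TPM with 90.4% and 89.7%. Both are in genes without a spliced coding transcript, so what they keep was not described.

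The 2 tables gave different weight to many leading members. IsoPct was at least 50% in both libraries for 33 of the 57 (57.9%). Over all 3920 transcripts that passed the same share and gene TPM limits, the percentage was 87.8%, and it was 89.4% of the coding, 68.2% of the nonsense-mediated decay and 52.3% of the processed transcripts. IsoPct was under 50% in both libraries for 19 and passed it in 1 library for 5. The same transcript led the gene in the alignment-based table in 41 genes, a coding transcript in 15 and another class in 1. Median IsoPct of the leading members was 58.4% and 56.3%. Leading coding transcripts had a median length of 2821 bases against 601 in the leading members, and the processed transcripts, at 659.5 bases, also had a low percentage. How length bears on these percentages was not tested.

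The widest gaps were in 5 genes. AC121821.1-204 had 11.2% and 14.7% in the alignment-based table, where a long noncoding transcript led. Brca2-211, of a DNA repair gene, held 75.8% and 73.2% but had IsoPct of 3.77% and 2.77%. It is 688 bases long, and the gene reached 20.4 and 22.8 TPM in the alignment-free and 5.40 and 4.62 TPM in the alignment-based table. Rex1bd-205, which keeps the 82-base intron 1 printed above, held 81.4% and 72.0% but had 5.08% and 10.1%. Gstp2-204 held 61.5% and 72.3% and was listed at 0 in both libraries of the alignment-based table. Gstp2 codes for a glutathione transferase with a close copy, Gstp1, so its reads are uncertain. The gene TPM of Cycs was 59.3 and 65.2 in the alignment-free and 15.7 and 18.2 in the alignment-based table, and 2 pseudogenes carry its name. The narrowest gaps were in Mrps26-201, Rsrp1-204, Rps26-202, Mrpl57-202 and Daam2-203, whose mean share minus mean IsoPct lay between -1.60 and 1.53 points. Daam2-203, of an activator of Wnt and actin pathways, is 8956 bases long, keeps introns 15 and 16 of 25 and held 51.1% and 55.2%.

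The 2 tables also scale length differently. The effective length, by which counts are divided, was the length minus a median of 233 and 237 bases in the alignment-free table and exactly 100 bases less in the alignment-based table. When shares were recomputed from the alignment-free counts with 100 bases subtracted, 44 genes passed, 43 of them among the 57. When shares of estimated counts were used, 59 genes passed, but only 24 of them were among the 57. The list therefore depends on how short transcripts are scaled.

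Over all members the tables were closer. In both libraries, 784 of 9015 members (8.70%) were at least 2-fold lower in the alignment-based table on the log2(TPM + 0.1) scale, against 16.2% of all 41992 transcripts at 1 TPM. At least 2-fold higher were 130 (1.44%) against 1.85%. Since members were selected on the alignment-free value, lower values in the other table are in part what the selection gives. Of the members, 82.8% reached 1 TPM in both libraries of the alignment-based table, near the 83.8% of coding transcripts at the same minimum. Of the members, 1.14% were listed at 0 in both. The Spearman correlation between the tables across members was 0.73 in replicates 1 and 2. Among members under 500 bases 17.9% were lower, and among those of at least 1500 bases 5.58%. For coding transcripts of the same lengths the values were 46.7% and 8.03%, so at each length fewer members than coding transcripts were lower. By place, 12.5% of members with the stretch at the 5′ end were lower, 6.502% with it inside and 7.35% with it at the 3′ end.

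**Figure D5:**
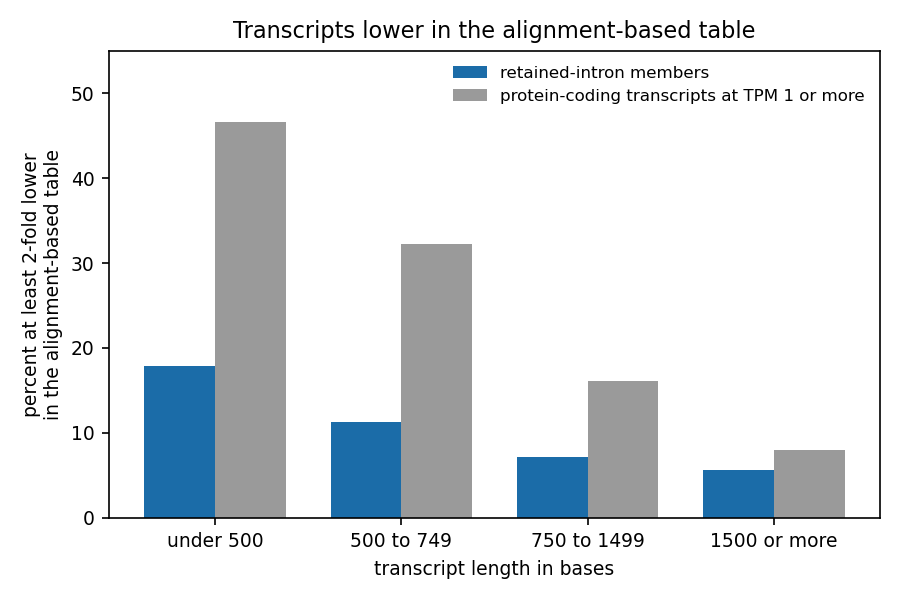
Percent of transcripts at least 2-fold lower in the alignment-based table in both libraries (y axis) by transcript length (x axis), for members (blue) and protein-coding transcripts at 1 TPM or more in both libraries (grey). Members go from 17.9% under 500 bases to 5.58% at 1500 bases or more, and coding transcripts from 46.7% to 8.03%.

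Single members stood far apart between the tables. The examples are extremes among members with at least 50 mean counts and were chosen after the values were seen. Lars2-205, of the mitochondrial leucyl-tRNA synthetase, stood at 56.2 and 74.9 TPM from 894 and 1196 counts and was listed at 0 in the alignment-based table. Hnrnpk-212 (33.4 and 35.1 TPM) was also listed at 0, and Rps25-203 went from 139 and 140 TPM to 2.53 and 0.140 TPM. In the other direction, Ywhae-204, of a phosphoserine-binding adaptor protein, had 11.4 and 9.54 TPM in the alignment-free and 125 and 124 TPM in the alignment-based table. Capns1-208, of the calpain small subunit, went from 10.6 and 6.92 to 62.2 and 60.6 TPM.

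Between the libraries, 534 members (5.92%) were more than 2-fold apart, against 6.22% of all 41992 transcripts at 1 TPM, so the members' percentage was near the background. Of these, 309 were higher in replicate 2 and 225 in replicate 1. The median log2 ratio of replicate 2 over replicate 1 was 0.07 over members and 0.10 over all transcripts. Among members with at least 50 mean counts, 124 of 5099 (2.43%) were apart, against 3.91% of all such transcripts. No leading member was. By selection their shares were at least 50% in both libraries and so at most 2-fold apart, which in part gives this. All 6 choroid plexus, all 6 striatal and all 4 microglia markers were higher in replicate 1. All 10 hippocampal neuron markers were higher in replicate 2, with sums of 977 and 1242 TPM. The part of these markers' cells in the differences was not tested.

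In the members furthest apart, the gene's total differed less than the member did. Since they were picked for the largest ratios and are only part of that total, this is largely what the choice gives. Tbca-202, of a tubulin chaperone, had 2.78 TPM (15.3 counts) in replicate 1 and 28.4 TPM (157 counts) in replicate 2, and the gene 54.5 and 78.2 TPM. The alignment-based table gave the transcript 0.680 and 0.720 TPM. Gapdh-206, of the glycolytic enzyme, had 9.75 and 90.6 TPM, against 2.55 and 2.37 TPM in the alignment-based table. Gapdh has many pseudogenes, so this value is uncertain. Sft2d1-201 (1.78 and 13.9 TPM) and Creb3-202 (1.23 and 8.47 TPM) were higher in replicate 2 in both tables, with 1.12 and 6.01 TPM and 1.69 and 3.61 TPM in the alignment-based one. Gria2-208, of the AMPA receptor subunit GluA2, had 1.60 and 8.49 TPM, against 17.4 and 28.9 TPM. Higher in replicate 1 were Ppp1ca-205 (11.5 and 1.66 TPM), Pabpc1-204 (14.2 and 2.18), Pygb-203 (15.6 and 2.92), Rack1-203 (7.95 and 1.55) and Ldb1-204 (5.30 and 1.06). The gene total was 105 and 107 TPM for Ppp1ca and 168 and 149 TPM for Rack1. The alignment-based table put Ppp1ca-205 higher in replicate 2, at 0.820 and 1.78 TPM.

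Members were counted in lists of splicing genes. Of 16583 genes at 1 TPM in both libraries, 29.5% had a member. Of 20 genes of SR proteins, which bind exons and recruit the spliceosome, and their kinases, 17 had one. Of 58 genes of the spliceosome and nuclear speckles 43 had a member, of 28 hnRNPs and related proteins 17, and of 21 neuronal splicing regulators 11. These bases include genes without an annotated retained-intron transcript. Among genes with one, 4890 of 7907 had a member over all genes, 17 of 17 in the SR list, 43 of 48 in the spliceosome list, 17 of 21 hnRNPs and 11 of 14 neuronal regulators. On the same base it was 38 of 43 synapse genes and 30 of 39 channel genes. The 7907 genes include ones near 1 TPM in total, in which a transcript can hardly reach 1 TPM. Such counts, here and in the lists below, thus depend on gene level too. The members of the SR list had a median share of 10.5% and 9.86%, above the 8.06% and 7.88% over all members. The medians were lower in the spliceosome list, at 6.98% and 7.08%, in the hnRNP list, at 3.37% and 4.19%, and in the neuronal regulators, at 3.86% and 4.05%. A member needs at least 1 TPM, so the lowest share it can have falls as the gene's level rises. List medians, here and below, thus depend on gene level too. Srsf5-212, which keeps an intron, stood at 32.6 and 35.3 TPM with 18.6% and 21.1% of its gene. Srsf2-203 had 20.6 and 24.8 TPM (29.8% and 34.1%), and Srsf11-211 22.7 and 31.9 TPM (23.1% and 29.8%). In the spliceosome list, the highest member was one of Snrnp70, of the U1 particle, with 47.3 and 49.3 TPM (28.3% and 26.3%). Srrm2-209 had 40.8 and 46.5 TPM and Ddx39b-204 30.8 and 34.1 TPM. In the hnRNP list, Hnrnpk-215 had 31.6 and 52.0 TPM. Celf3-211 (8.77 and 8.44 TPM) and Mbnl2-206 (8.22 and 8.84 TPM) led the neuronal regulators.

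All 6 genes of the list known for regulated kept introns had members, against 4890 of 7907 genes with an annotated retained-intron transcript. In replicate 1 the 6 genes stood at 38.6 TPM (Srsf7) to 176 TPM (Srsf5), while the 7907 include genes near 1 TPM. The contrast thus depends on gene level too. Clk1, Clk4, Srsf5 and Srsf7 are also in the SR list, so the lists overlap. Their 20 members had a median share of 11% and 10.2%. Clk1-204, of a kinase that phosphorylates SR proteins, keeps 3 introns and stood at 12.3 and 12.2 TPM with 24.4% and 21.8% of its gene. Ogt-204, of the enzyme that adds O-GlcNAc, had 20.7 and 19.4 TPM (25.7% and 23.3%). When all retained-intron transcripts of a gene were summed, Clk1 reached 60.3% and 48.2%, Clk4 53.3% and 57.6%, Srsf7 40.6% and 38.3%, Ogt 37.0% and 33.6%, Srsf5 21.6% and 24.6% and Mat2a, of the enzyme that makes S-adenosylmethionine, 23.0% and 17.3%. The median of such sums over 5402 genes with annotated retained-intron transcripts and at least 10 TPM was 13.8% and 13.3%. Each of the 6 lay above it in both libraries. Their own median was 38.8% and 35.9%, near the 33.5% and 35.1% of 16 genes of the SR list. It was 25.8% and 25.1% in the spliceosome list (47 genes). In the hnRNP list (21 genes) it was 9.18% and 8.68%, and in the neuronal regulators (14 genes) 7.39% and 7.34%. Such sums depend on the number of annotated retained-intron transcripts: 7 each in Clk1 and Clk4 and 3 each in Srsf7, Ogt, Srsf5 and Mat2a.

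Summed in this way, 268 of these 5402 genes (4.96%) had at least 50% in both libraries. In 211 of the 268 no single member did so. Srsf11, of an SR-related protein, had 11 annotated retained-intron transcripts that summed to 69.5% and 69.3%, with IsoPct sums of 75.8% and 74.9%. Snrnp70 had 9, which summed to 67.2% and 64.7%, with IsoPct sums of 63.3% and 64.0%. Further genes by level were Stk25, a protein kinase (53.5% and 52.5%), Napa, of vesicle fusion (50.6% and 52.7%), Apod, a lipid carrier of glia (55.7% and 53.2%), and the kinase Tnik (57.8% and 53.1%). Their IsoPct sums were 54.9% and 55.3% for Stk25 and 62.4% and 53.9% for Tnik. For Napa they were only 36.7% and 44.6%, and for Apod 48.9% and 49.5%. These genes were named after their sums were seen. The IsoPct sum also passed 50% in both libraries in 180 of the 268 (67.2%), and in 141 of the 211 (66.8%). By share of estimated counts, 107 of the 268 had at least 50% in both libraries. In the spliceosome list 5 of 47 such genes passed: Prpf39, Rbm25, Rbm5, Snrnp70 and Snrpb2. In the respiratory chain list 5 of 51 passed, in the ribosomal protein list 4 of 66, in the SR list 2 of 16 and in the ion channel list 1 of 32. None passed of 41 synapse genes, 21 hnRNPs, 14 neuronal splicing regulators, 15 glial genes and 17 genes of the amyloid precursor and tau list. At a background of 4.96%, lists of this size hold few such genes, and no difference between them was tested.

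Ribosomal protein and respiratory chain genes combined a few very high shares with low ones. Of 84 cytosolic ribosomal protein genes at 1 TPM, 62 had a member, or 62 of the 66 with an annotated retained-intron transcript (4890 of 7907 over all genes). Their 105 members had a median share of 1.25% and 1.27%. In the respiratory chain list 49 of 93 had a member, or 49 of the 54 with an annotated retained-intron transcript, with a median share of 2.69% and 2.76%. In genes of high level, transcripts with lower shares can reach 1 TPM, so these medians depend on gene level. They were below the median over all members, while 4 ribosomal protein and 5 respiratory chain genes were among the 57. Ndufab1, described above, is not in the list used for this count. In the ribosomal list 26 of 105 members (24.8%) were at least 2-fold lower in the alignment-based table, and in the respiratory chain list 11 of 77 (14.3%), against 8.70% over all members. Besides Rps16-203 and Rps26-202, Rpl31-204 led the list at 174 and 166 TPM (36.3% and 35.0%), with IsoPct of 22.3% and 20.8%.

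Neuronal and glial lists differed in their median shares, which also depend on gene level. Of 79 synapse genes 38 had one, with a median share of 3.23% and 3.23%. Shank1-206, of a postsynaptic scaffold, had 26.9 and 39.1 TPM (12.2% and 15.5%), and Gria2-206 31.0 and 34.9 TPM (14.7% and 13.6%). Gabbr1-211, of a GABA-B receptor subunit, had 31.3 and 29.96 TPM (11.8% and 10.4%), with IsoPct of 2.39% and 2.97%. The ion channel list was picked by gene name, so it also holds channels that are not voltage-gated and auxiliary proteins. Of its genes at 1 TPM, 30 (29.4%) had a member, with a median share of 6.65% and 6.76%. Summed per gene, 32 channel genes had a median of 16.3% and 14.04%, and Kcnt1, named for passing 50%, had 56.8% and 57.8%. Cacng7-202 had 17.1 and 17.8 TPM (28.3% and 29.8%), with IsoPct of 8.53% and 19.2%. Kcnip2-204 had 12.2 and 14.7 TPM (20.3% and 20.4%), with IsoPct of 17.3% and 18.3%. Of 37 glial genes 13 had a member, or 13 of the 17 with an annotated retained-intron transcript, with a median share of 1.63% and 1.67%. Slc1a3-204, of the astrocyte glutamate transporter GLAST, stood at 76.7 and 76.3 TPM and held 31.3% and 30.6%, but its IsoPct was 3.09% and 5.03%.

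Among 20 genes of the amyloid precursor and tau list, 14 had members. Of those with an annotated retained-intron transcript it was 14 of 19, against 4890 of 7907 over all genes. Their median share was 3.49% and 3.31%, below the 8.06% and 7.88% over all members. This median also depends on gene level, as in the other lists. Aplp2-207, of an APP-like protein, had 28.6 and 31.6 TPM (14.6% and 15.6%), with IsoPct of 15.1% and 15.4%. Bin1-204, of a membrane-bending protein linked to Alzheimer disease risk, keeps an intron and had 17.4 and 21.1 TPM (15.1% and 15.6%). Cdk5-202, of a neuronal kinase that phosphorylates tau, keeps an intron and had 22.0 and 15.9 TPM (35.6% and 23.0%), with IsoPct of 21.7% and 13.6%. Of 80 chaperone genes 34 had members, or 34 of the 44 with an annotated retained-intron transcript. Hsp90aa1-204, of an inducible Hsp90, had 75.8 and 131.8 TPM (17.6% and 23.6%). In the alignment-based table it had 20.5 and 69.5 TPM, with IsoPct of 5.73% and 16.1%. Hsph1-208 had 27.8 and 33.7 TPM. Of 23 long noncoding and small RNA host genes 5 had members, or 5 of the 7 with an annotated retained-intron transcript. The highest were Snhg11-202 at 13.2 and 13.2 TPM (4.75% and 4.61%) and Gas5-218 at 8.31 and 8.74 TPM. With 1 group, none of these values can be set against mice without the transgenes.

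The thresholds cut through close values. Just inside 1 TPM were Ythdc1-206 (1.00 and 1.09), Nedd8-203 (1.00 and 1.41) and Fosl2-202 (1.00 and 1.25). Just outside were Sod2-203 (2.09 in replicate 1), Ubr1-203 (1.17 in replicate 2) and Nudt8-202 (1.26 in replicate 2), each just under 1 TPM in the other library. Just inside a share of 50% were Shisa4-203, 1810009A15Rik-203 (50.3% and 57.9%) and Lyrm7-202, and just outside Ube2r2-202 (50.3% and 49.9%), Rnaseh2c-203 (61.9% and 49.2%) and Sri-201 (48.7% and 53.7%). Just inside a gene TPM of 10 were Arntl2-208 (10.3 and 10.1), Alkbh7-203 (10.6 and 13.3) and Arsa-201 (11.9 and 13.5). Just outside were Gm21992-205 (12.8 and 9.90), Cox15-202 (9.38 and 9.57) and Sdccag8-204 (9.29 and 9.33).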

How the data were processed

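Each of the 2 libraries came with an alignment-free transcript table and with transcript and gene tables made from alignments, all on mm10 with GENCODE M21, as each library's deposited notes state. For the aligner and quantifiers, names are not given in sources used here. Estimated counts (alignment-free) and expected counts (alignment-based) were deposited as the authors made them and need not be whole. TPM, which divides counts by effective length and scales to depth, was deposited by the authors. A deposited percent, IsoPct, is the share of gene TPM per transcript in the alignment-based table, per the file headers. Lengths and effective lengths were used as deposited.

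Here, the share of a transcript is its TPM divided by the summed TPM of its gene in the alignment-free table. Spike-ins and phiX (97 entries) were left out. Introns of at least 30 bases came from the GENCODE M21 exons, sequences from its transcripts, since no genome was used here. Ratios used a pseudocount of 0.1. The software was matplotlib 3.10.9, scipy 1.17.1, pandas 2.3.3 and numpy 2.4.6 under Python 3.11.15. The functions were tested on simulated data. With 1 group of 2 libraries no test was made.

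The members and lists were chosen with earlier results of these data known. Named were the 30 leading members with the highest gene TPM, the 10 highest members, up to 3 per list, the 5 per direction furthest apart between libraries (mean counts of at least 50), the 5 with the largest and the 5 with the smallest gap between share and IsoPct, and 3 on each side of each threshold. Others are marked as chosen after their values were seen. Alternatives covered the thresholds, pseudocounts, units, tables and leaving out each replicate. Some items that this rule names are not reported here.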

Additional observations from a re-analysis of the deposited data

How the results depend on the processing

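The number of members was 9015 and fell to 4738 at a minimum of 2 TPM and to 1400 at 5 TPM, with 10567 to 10625 when 1 library was left out. The 57 leading genes became 98, 31 and 11 at shares of at least 40%, 60% and 75%, and 268 when all retained-intron transcripts of a gene were summed. They were 70 to 77 with 1 library left out, and IsoPct in place of the share gave 46 genes, 33 of them among the 57. The median share over members, 7.97%, was 3.69% for estimated counts, 6.89% for IsoPct, 7.57% with the effective length of the alignment-based table (chosen after seeing the data) and 7.88% to 8.06% without 1 library. The class held 4.68% of TPM, 4.30% of estimated counts, 4.44% of alignment-based TPM, 5.27% of the TPM of nuclear transcripts of at least 200 bases, and 4.54% to 4.83% without 1 library. Members more than 2-fold apart between libraries numbered 534, 218 with a pseudocount of 1 and 934 in the alignment-based table. Members lower in the alignment-based table numbered 784, and 478 with a pseudocount of 1. No paired analysis was possible because there is only 1 group. Depth limits the precision of single members: 566 had fewer than 10 counts in a library.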
